A study of Mus musculus with 2 samples.

Results

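The genes described here are the microRNA (miRNA) genes with high registry numbers that gave reads in the mouse adrenal gland. They were chosen by a GENCODE M21 symbol of Mir followed by a number of 1000 or more and by a measured value, a count of at least 20 reads on the gene's own strand summed over both libraries. Mir1188, Mir1193, Mir1197 and Mir1224 were left out by name, which gave 70 members among the 2202 genes of the tables. Both libraries came from adrenal glands of female B6CASTF1/J mice, the F1 cross of the strains C57BL/6J and CAST/EiJ, aged 18 to 20 months and with no treatment in the labels. They were small RNA libraries made from total RNA, for which the labels state a size range below 30. The labels give 1 group of 2 biological replicates entered under the same donor record, so there was no second condition, and the spread below is that between these 2 samples.

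A miRNA is cut from a hairpin RNA. The Microprocessor (Drosha with its partner DGCR8) releases the hairpin from a longer transcript, Dicer removes the loop, and an Argonaute protein keeps 1 strand, which finds its targets mainly through the seed, bases 2 to 8. Registry numbers are given in order of submission, so high numbers mostly come from deep sequencing surveys. Some such entries overlap other small RNAs, such as small nucleolar RNAs (snoRNAs) and small Cajal body RNAs (scaRNAs), which guide chemical modification of ribosomal and spliceosomal RNA. Others are mirtrons, short introns that fold into a hairpin after splicing and so skip Drosha. The adrenal gland studied here makes steroid hormones in its cortex and catecholamines in its medulla.

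Each member was placed by its overlap with other annotated genes. Of the 70 members, 9 overlapped a snoRNA or scaRNA gene on their own strand (called snoRNA-like), 1 overlapped a tRNA gene, and 4 filled a short intron from splice site to splice site (mirtron-like). Another 2 ended at the 3′ splice site of a short intron but began inside it (tailed mirtron-like). A miRNA gene lay on the other strand at 5 members. Of the rest, 22 lay in an exon, 15 in an intron, 3 across from a host gene and 9 in no other gene. No member met the rule for ribosomal RNA, which asked for overlap with an annotated rRNA gene or a shared run of 18 bases with an rRNA transcript of GENCODE M21. That set holds no 28S or 45S sequence, so this was not tested for the long rRNAs.

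The snoRNA-like members the results turn on are shown first, as mature sequences from RefSeq (GRCm38.p6, the build of the files), 5′ to 3′ with the seed in capitals. They include the member with the most reads and the one that differed most in level between the libraries among the 12 highest.
miR-1839-5p: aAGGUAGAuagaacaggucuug
miR-1291: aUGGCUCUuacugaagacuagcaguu
miR-1843a-5p: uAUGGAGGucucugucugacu
miR-1843b-5p: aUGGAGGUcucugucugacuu
miR-3068-5p: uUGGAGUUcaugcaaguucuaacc
The 5p sequences of Mir1843a and Mir1843b share a run of 20 bases, but their annotated first bases differ by 1 position within it, so the seeds are not the same.

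The mirtron-like members are shown as whole hairpins, since each is an intron. The capitals mark the first and last bases, the GT and AG of a splice donor and acceptor. Mir1981 fills an intron of 82 bases in Marc2 (chr1:184822407-184822488, minus strand), and Mir3102 an intron of 104 bases in Arhgef17 (chr7:100882306-100882409, minus strand).
Mir1981: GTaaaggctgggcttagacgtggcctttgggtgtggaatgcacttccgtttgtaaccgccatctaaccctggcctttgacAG
Mir3102: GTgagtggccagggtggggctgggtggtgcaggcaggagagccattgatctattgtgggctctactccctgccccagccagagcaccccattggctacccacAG
Mir3547: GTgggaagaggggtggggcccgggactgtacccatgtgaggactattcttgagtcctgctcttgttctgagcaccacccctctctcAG
Mir7080: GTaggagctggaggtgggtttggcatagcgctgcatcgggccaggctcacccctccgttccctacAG
Mir3547 fills an intron of 88 bases in Baiap3 and Mir7080 one of 67 bases in Cpne7, again with 0 bases between the hairpin and either splice site. Mir3102 and Mir7080 also overlap a noncoding exon of another transcript of the same gene.

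A further set is shown because it carries the comparisons with tRNA, rRNA, human entries and paired loci.
miR-1983: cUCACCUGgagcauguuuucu
miR-6236: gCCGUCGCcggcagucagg
miR-6240: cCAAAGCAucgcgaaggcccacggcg
miR-1249-3p: aCGCCCUUcccccccuucuuca
miR-1306-3p: aCGUUGGCucugguggugaug
miR-1306-5p: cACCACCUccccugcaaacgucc
miR-1247-5p: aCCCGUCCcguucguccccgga
miR-3070-3p: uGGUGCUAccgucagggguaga
miR-3070-2-3p: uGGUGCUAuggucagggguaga
miR-3544-5p: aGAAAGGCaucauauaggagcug
miR-3065-5p: uCAACAAAaucacugaugcugg
miR-3074-5p: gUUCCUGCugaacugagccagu
Mir3070a and Mir3070b have the same 5p sequence, 23 bases long, and 3p sequences (miR-3070-3p and miR-3070-2-3p) whose longest shared run is 12 bases and whose seeds are equal.

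The own-strand total was 2590051 counts for replicate 1 and 2291030 for replicate 2, and reads that name no gene were 73.6% and 67.2% of all reads. The latter include 2357429 and 1958627 multimapping reads, which fit more than 1 place and are in no gene count. CPM below are counts per 1000000 of these own-strand totals. They are not divided by length, since the reads of such libraries span a whole small RNA. All 7 listed miRNAs known from endocrine and adrenal cells were present, with 408128 and 293628 counts in sum. Presence alone does not tell the adrenal gland from another tissue, as markers of other tissues also had counts (below). Listed markers of other tissues differed between the libraries as well. The muscle markers Mir208a and Mir499 together had 651 counts in replicate 1 and 3 in replicate 2, with Mir208a at 0 in replicate 2. Of the epithelial markers, Mir200c had 65 and 452 counts and Mir203 2972 and 3706, together 3037 and 4158. Counts of the blood marker Mir451a were 1916 and 799, and those of the endothelial marker Mir126a 167712 and 76549. Liver Mir122 had 1611 and 1608 counts, which scale to 622 and 701.9 CPM. The kidney-enriched Mir10a and Mir30a together had 100343 and 99320 counts, or 38742 and 43352 CPM. Of these, Mir10a had 80336 and 84112 counts and Mir30a 20007 and 15208, so they went opposite ways. The part of these in the differences between libraries given below was not tested, and in whole tissue fewer cells of a type cannot be told from less RNA per cell.

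Of 649 annotated genes with a number of 1000 or more, 319 had no read in either library, 257 had 1 to 19 reads and 73 had at least 20, or 11.2%. Among 514 genes with lower numbers, 273 had at least 20, or 53.1%. Since the rule asked for this count, these shares are a description. By counts, the members just inside the threshold were Mir5107 (3 and 17 in replicates 1 and 2), Mir6933 (17 and 3) and Mir3474 (9 and 12). Just outside stood Mir6934 (11 and 7), Mir7655 (8 and 10) and Mir6990 (13 and 6). The genes left out by name had counts of 77 and 110 (Mir1188), 107 and 123 (Mir1193), 1 and 0 (Mir1197), and 12 and 14 (Mir1224).

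In sum the members were a small part of the adrenal miRNA reads. They had 10959 counts in replicate 1, which is 0.423% of the total (Wilson 95% interval 0.415 to 0.431), and 8946 in replicate 2, or 0.390% (0.382 to 0.399). In CPM these were 4231 and 3905, a mean of 4068 ± 231 (SD, n = 2). Such intervals cover counting error only. A few entries held most of it: 5 members reached 1000 counts over both libraries, 25 reached 100, and the 6 with the most reads in each library took 66.0% of the members' counts in replicate 1 and 61.5% in replicate 2. The median member had a mean of 13.8 CPM, against 111 CPM over all 367 genes with a summed count of at least 20. At least 10 counts in each library were seen for 55 members, and no member was at 0 in a library, where a count of 0 would allow up to 1.16 CPM in replicate 1 and 1.31 CPM in replicate 2.

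**Figure D1:**
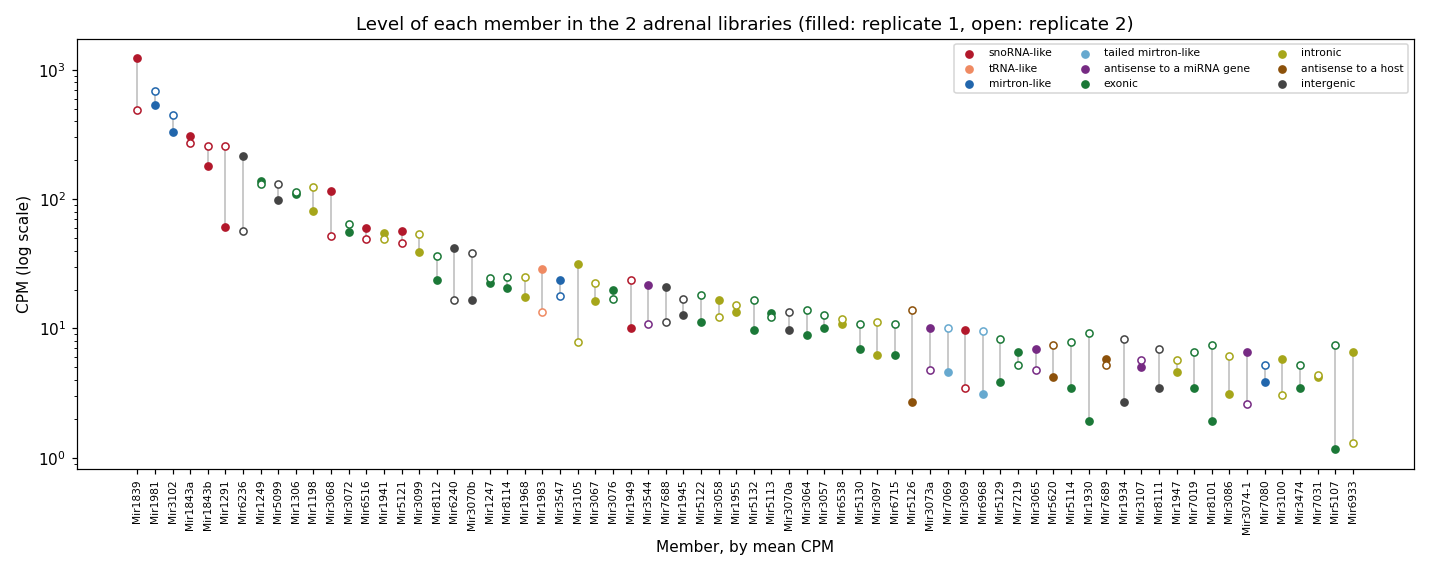
Level of each of the 70 members in CPM on a log scale, with replicate 1 as a filled and replicate 2 as an open point joined by a line, coloured by class. Mir1839 is the highest by mean and in replicate 1 (1225 and 489 CPM), Mir1981 is the highest in replicate 2 (681 CPM), and most members lie below 30 CPM.

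The snoRNA-like members held the largest share of the reads. Their 9 genes had 5244 counts in replicate 1 and 3317 in replicate 2, which is 47.9% and 37.1% of the members' counts. Of the 10 annotated high-number genes of this kind, 9 reached the count minimum. So did 15 of 261 intronic, 22 of 135 exonic and 9 of 92 intergenic ones, and 5 of 10 across from a miRNA gene. Since the rule asked for this count, these numbers are a description. In CPM the class summed to 2025 and 1448, a mean of 1736 ± 408 (SD, n = 2), and replicate 1 was the higher. Without Mir1839 the other 8 summed to 800.0 and 959 CPM, and replicate 2 was the higher. These sums are below the 891.9 and 1150 CPM of the mirtron-like members, so the lead of the class rests on Mir1839.

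**Figure D2:**
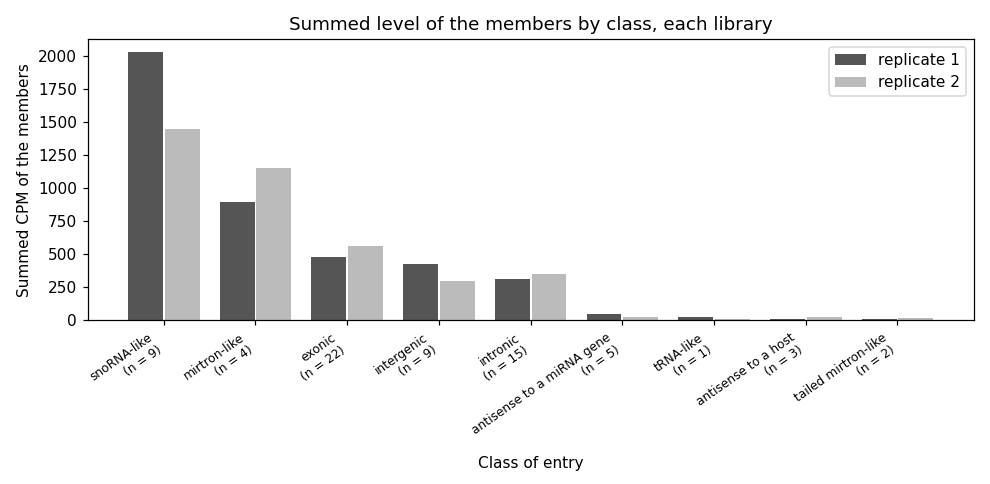
Summed CPM of the members in each class, as bars from 0, for replicate 1 (dark) and replicate 2 (light), with the number of members under each class. The snoRNA-like members are the highest class in both libraries (2025 and 1448 CPM), followed by the 4 mirtron-like members (891.9 and 1150 CPM). Without Mir1839 the snoRNA-like sums are 800 and 959 CPM, below the mirtron-like ones.

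Mir1839 (chr7:81529916-81529988, plus strand) is annotated as a scaRNA under the same name and lies in a noncoding exon of 2900076A07Rik. It had 3172 counts in replicate 1 and 1121 in replicate 2, or 1225 and 489 CPM, and ranked 85 among all genes of the tables by mean CPM. Replicate 1 was 2.44 times replicate 2. On the log2 scale, replicate 2 over replicate 1, the ratio was -1.29 (exact 95% interval -1.39 to -1.19; two-sided exact conditional binomial test, Benjamini-Hochberg adjusted p = 9.17e-162).

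This test compares the reads of these 2 libraries, with counting error only, and p-values were adjusted over the 367 genes with a summed count of at least 20. It is no test of a condition, and the common biological coefficient of variation between the libraries was 0.432. Of these 367 genes 62.7% passed an adjusted p of 0.05, with 32.4% higher in replicate 1 and 30.2% higher in replicate 2. Among the members 28 of 70 passed, or 40%, with replicate 1 the higher for 10 (14.3%) and replicate 2 for 18 (25.7%). Without a filter on low counts, scaling used all genes, which moves all log2 ratios by -0.13, and p-values were adjusted over every gene with a read. In that setting 23 members passed, 11 higher in replicate 1 and 12 in replicate 2. The changes in scaling and in adjustment were not run apart.

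Split by depth, the shares of members that passed are given beside those of all tested genes, which include the members. Members are 26 of the 41 genes and 19 of the 52 in the 2 lower groups, so nearness there is partly built in. With summed counts of 20 to 39, 9 of 26 members passed (34.6%, against 36.6% of all 41 genes), and with 40 to 99, 5 of 19 did (26.3%, against 26.9% of 52). With 100 or more, 14 of 25 members passed (56.0%, against 73.4% of 274). The median log2 ratio of the members was 0.38 and that of all tested genes 0.02. In absolute size the medians were 0.68 and 0.46, and 48 members differed by less than 2-fold. These medians are not matched by depth, and the members had lower levels (median 13.8 against 111 CPM).

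**Figure D3:**
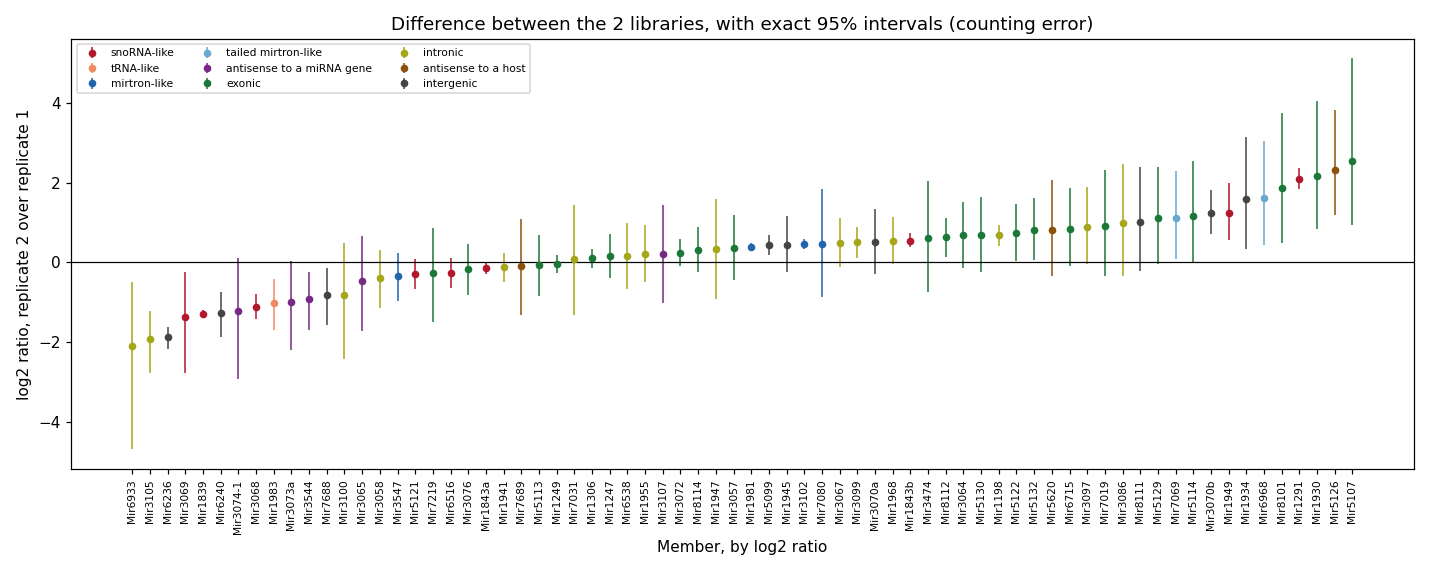
The log2 ratio of replicate 2 over replicate 1 for each of the 70 members, in order, with exact 95% intervals for counting error and coloured by class. Ratios run from -2.11 (Mir6933) to 2.54 (Mir5107), and the intervals are widest at both ends, where counts are low.

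Mir1291 overlaps Snora34, a snoRNA in an intron of Kansl2 (chr15:98519762-98519878, minus strand), a gene for a subunit of a histone acetyltransferase complex. Its counts were 159 in replicate 1 and 589 in replicate 2, so it was higher in the library where Mir1839 was lower. The log2 ratio was 2.10 (95% interval 1.85 to 2.37; exact test, adjusted p = 8.14e-73), a 4.29-fold difference. No other member with 40 or more counts over both libraries had a higher ratio.

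Mir1843a and Mir1843b overlap the scaRNA genes Scarna3b, in Dcaf5 on chromosome 12, and Scarna3a, in Cop1 on chromosome 1. Both host genes encode parts of the ubiquitin system. Mir1843a had 797 and 623 counts in replicates 1 and 2, a log2 ratio of -0.14 that missed the threshold (exact test, adjusted p = 0.105). With DESeq2 size factors, total counts or the strand-ignored column its adjusted p was 0.00472, 0.0347 and 0.0447. Mir1843b had 464 and 587 counts and was higher in replicate 2, by 0.55 on the log2 scale (exact test, adjusted p = 1.52e-09). Each shares a run of at least 18 bases of hairpin with the other. Reads that fit both loci would be among the multimapping reads, which are in neither count, and their number was not tested.

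Mir3068, annotated as a snoRNA within Alkbh1, the gene of a nucleic acid demethylase, had 298 counts in replicate 1 and 119 in replicate 2. Its log2 ratio was -1.11 (95% interval -1.43 to -0.80; exact test, adjusted p = 4.59e-13). Mir6516 overlaps a scaRNA (Gm26083) in Snhg20, a host gene for small nucleolar RNA. Its 156 and 112 counts missed the threshold (log2 ratio -0.26; exact test, adjusted p = 0.192). Mir5121 overlaps Snord33 in Rpl13a, a ribosomal protein gene, and its 147 and 104 counts did not differ beyond counting error either (log2 ratio -0.28; exact test, adjusted p = 0.178).

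Mir1949 and Mir3069, the latter overlapping Scarna13 in Snhg10, were the lowest of the class. Mir1949 had 26 and 54 counts and was higher in replicate 2, with a log2 ratio of 1.25 (exact test, adjusted p = 0.000374). Mir3069 had 25 and 8 counts and was higher in replicate 1, with a log2 ratio of -1.37 (exact test, adjusted p = 0.0231). Within the class 3 members were thus higher in replicate 1, 3 in replicate 2, and 3 did not pass. Of all 367 tested genes, 32.4% were higher in replicate 1 and 30.2% in replicate 2. Of the listed snoRNA-derived entries with a lower number, Mir664 had 341 and 285 counts.

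The mirtron-like members came next and held 21.1% of the members' counts in replicate 1 and 29.4% in replicate 2. They summed to 891.9 and 1150 CPM, a mean of 1021 ± 182 (SD, n = 2). Nearly all of this came from Mir1981 and Mir3102. Of the 19 annotated high-number genes that fill a short intron, 4 reached the count minimum, and 2 of 61 tailed ones did.

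Mir1981, in an intron of Marc2, a mitochondrial reductase gene, had 1379 counts in replicate 1 and 1560 in replicate 2. It was the highest member in replicate 2, at 681 CPM, and the log2 ratio was 0.39 (95% interval 0.29 to 0.50; exact test, adjusted p = 6.13e-13). Mir3102, in an intron of Arhgef17, a gene for a guanine nucleotide exchange factor, had 860 and 1021 counts. Its log2 ratio was 0.46 (95% interval 0.33 to 0.59; exact test, adjusted p = 1.28e-11). Both were thus higher in replicate 2 by less than 1.5-fold, 1.31-fold for Mir1981 and 1.38-fold for Mir3102. RefSeq lists 4 mature sequences from the Mir3102 hairpin, and the seed of miR-3102-5p, which begins at the splice donor, is also that of miR-702-5p.

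Mir3547, in Baiap3, a gene of secretory vesicle release, had 61 and 41 counts (log2 ratio -0.35; exact test, adjusted p = 0.302). Mir7080, in Cpne7, a copine gene of calcium-dependent membrane binding, had 10 and 12 counts (log2 ratio 0.47; exact test, adjusted p = 0.608). Neither passed, and both lay far below the leading pair. The tailed entries also had low counts. Mir7069 starts 28 bases into an intron of 90 bases in Farsa, a subunit gene of a tRNA synthetase, and had 12 and 23 counts (log2 ratio 1.13; exact test, adjusted p = 0.0433). With DESeq2 size factors its log2 ratio was 1.03 and its adjusted p 0.0656, past the threshold no longer. Mir6968 starts 74 bases into an intron of 142 bases in Phf1, a Polycomb accessory gene, and had 8 and 22 counts (log2 ratio 1.62; exact test, adjusted p = 0.00591).

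Known Drosha-independent miRNAs give the scale. On a list of 10 such genes from the literature, Mir320 had 14186 and 16331 counts and Mir484 3141 and 3339. Those of Mir668 were 1133 and 928, of Mir877 336 and 253, of Mir702 69 and 108, and of Mir1982 7 and 10. Mir1981 and Mir3102 therefore lay within the range of the listed entries of lower number, below Mir320 and Mir484. The third member on the list, Mir5132, lies in an exon of Irak1, a kinase gene of innate immune signalling, by the splice rule used here. It had 25 and 38 counts, with a log2 ratio of 0.81 (exact test, adjusted p = 0.0496).

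The single tRNA-like member was Mir1983, on the minus strand of chromosome 13, which overlaps the RefSeq tRNA gene n-TItat14. It had 74 counts in replicate 1 and 31 in replicate 2, and a log2 ratio of -1.03 (95% interval -1.70 to -0.42; exact test, adjusted p = 0.00111). Its predicted fold had 3 loops. The seed of miR-1983 is shared with miR-412-3p.

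Mir6236 and Mir6240 were higher in replicate 1. Mir6236 is listed in the literature as a fragment of ribosomal RNA, and here lay in no other annotated gene (chr9:110281287-110281409, plus strand). It had 562 counts in replicate 1 and 131 in replicate 2, with a log2 ratio of -1.88 (95% interval -2.17 to -1.61; exact test, adjusted p = 1.01e-50). Of the 7 entries on that list 2 were in the tables, and Mir3968 was at 0 in both libraries. Mir6240, with 108 and 38 counts, had a log2 ratio of -1.28 (95% interval -1.87 to -0.75; exact test, adjusted p = 1.63e-06). The seed of miR-6240 is also that of miR-330-3p.

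The other intergenic members differed in either direction. Mir5099 had 257 and 299 counts, with a log2 ratio of 0.43 (exact test, adjusted p = 0.000834). The 9 intergenic members summed to 423.9 and 299.9 CPM, and without Mir6236 the other 8 summed to 207 and 243 CPM. Of the 9, replicate 1 was the higher for 3 (Mir6236, Mir6240 and Mir7688) and replicate 2 for 3 (Mir5099, Mir3070b and Mir1934). Mir1945, Mir3070a and Mir8111 did not pass. The shares over all 367 tested genes were 32.4% higher in replicate 1 and 30.2% higher in replicate 2.

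Members within exons were the most numerous class but held only 11.4% and 14.5% of the members' counts. Their 22 genes summed to 481.5 and 564.4 CPM, a mean of 522.9 ± 58.6 (SD, n = 2). None was higher in replicate 1, 5 were higher in replicate 2 (summed counts of 20 to 145) and 17 did not pass. Over all 367 tested genes, 32.4% were higher in replicate 1 and 30.2% in replicate 2. By annotation 6 of the 22 exonic members overlapped a 5′ UTR, 5 a 3′ UTR and 10 a coding exon. Some were in more than 1 of these, and 4 lay only in noncoding exons. Counts per gene do not show which bases of the exon the reads cover.

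The highest exonic members were even between the libraries. Mir1249, in a noncoding exon of 5031439G07Rik, had 356 counts in replicate 1 and 298 in replicate 2 (137 and 130 CPM; log2 ratio -0.04, 95% interval -0.27 to 0.18; exact test, adjusted p = 0.789). Mir1306 lies in a coding exon of Dgcr8, the gene of Drosha's partner. It had 284 and 262 counts (110 and 114 CPM; log2 ratio 0.10, 95% interval -0.15 to 0.35; exact test, adjusted p = 0.529).

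Mir1306 and Mir1249 are also on a list of 10 high-number genes with a human gene of the same number. Of these 10, 5 were members, 4 had no read and Mir1298 had 1 and 2 counts. The other members on it were Mir1291 above, Mir3074-1 below and Mir1247. Mir1247, in a noncoding exon of Dio3os at the end of the imprinted Dlk1-Dio3 region, had 58 and 56 counts (log2 ratio 0.16, 95% interval -0.39 to 0.72; exact test, adjusted p = 0.652). Those without a read included Mir1912 and Mir1264, from introns of the serotonin receptor gene Htr2c. The 5 listed miRNAs of these introns had 2 and 4 counts in all.

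The other exonic members lay in genes of varied roles. Mir8114 overlaps a 5′ UTR of Glul (glutamine synthetase), Mir3076 an exon of Tkt (transketolase), Mir3064 one of Ddx5 (an RNA helicase), and Mir5114 one of Scd2 (a stearoyl-CoA desaturase). Further entries lay in Krcc1, Kctd12, Pink1, Tnrc6b, Apba3, Zeb2, Fam210a and Actr5, which hold Mir8112, Mir5130, Mir7019, Mir5113, Mir3057, Mir5129, Mir7219 and Mir3474. The 5 exonic members that passed were Mir5132 above, Mir8112, Mir1930, Mir8101 and Mir5107. Of these, Mir1930, in a noncoding exon of Ube2g2, had 5 and 21 counts and Mir8101, in Hdac5, 5 and 17. Both were higher in replicate 2, by 2.18 and 1.88 on the log2 scale (exact test, adjusted p = 0.00106 and 0.00822), as was Mir5107 in Cd74 (2.54; exact test, adjusted p = 0.000995). Mir6715, in an exon of Tectb, missed the threshold with 16 and 25 counts (log2 ratio 0.84; exact test, adjusted p = 0.0931).

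Intronic members were 15 of 261 annotated and summed to 310.0 and 354.4 CPM. Mir1198, in Gripap1 on chromosome X, led them with 208 counts in replicate 1 and 287 in replicate 2 (log2 ratio 0.68, 95% interval 0.42 to 0.94; exact test, adjusted p = 4.76e-07). Mir3105, in Shank2, a postsynaptic scaffold gene, went the other way, with 81 and 18 counts. Its log2 ratio of -1.92 (95% interval -2.78 to -1.21; exact test, adjusted p = 1.71e-08) was the lowest of the members with 40 or more counts over both libraries. Mir3097, in Rgs12, a regulator of G-protein signalling, missed the threshold with 16 and 26 counts (log2 ratio 0.90; exact test, adjusted p = 0.0701).

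Of the 15 intronic members 2 were higher in replicate 1 (Mir3105 and Mir6933), 2 in replicate 2 (Mir1198 and Mir3099), and 11 did not pass. Those 11 were Mir1941, Mir1968, Mir3067, Mir3058, Mir1955, Mir6538, Mir3097, Mir1947, Mir3086, Mir3100 and Mir7031. Among all 367 tested genes, 32.4% were higher in replicate 1 and 30.2% in replicate 2. Across from a host gene lay Mir5126, Mir5620 and Mir7689. Mir5126, opposite Dner, had 7 counts in replicate 1 and 32 in replicate 2, with a log2 ratio of 2.33 (95% interval 1.20 to 3.83; exact test, adjusted p = 1.44e-05). Mir5620 and Mir7689, which share a 5p seed, did not pass.

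Within the Dlk1-Dio3 region, an imprinted domain on chromosome 12 that carries a large miRNA cluster, lay 5 members, Mir3072, Mir3070a, Mir3070b, Mir1247 and Mir3544. Mir3072, in the noncoding transcript Mirg, had 145 and 148 counts. Mir3070a and Mir3070b, whose hairpins lie 561 bases apart, had 25 and 31 counts and 43 and 88 counts. Reads of their common 5p sequence fit both loci, so they would be among the multimapping reads that these counts leave out. For Mir3070b the log2 ratio was 1.24 (95% interval 0.71 to 1.81; exact test, adjusted p = 3.91e-06), and for Mir3070a it was 0.52 (-0.28 to 1.35; exact test, adjusted p = 0.241). Their intervals overlap, and the difference between them was not tested. Levels of older-number neighbours within the cluster varied widely. Near the Mir3070 pair, Mir433 had 9486 and 12342 counts and Mir493 48 and 51. Near Mir3072, Mir541 had 10223 and 11271 counts and Mir412 32 and 17.

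The 5 members across from a miRNA gene can be read only with strand, since the strand-ignored column gives 0 for each of them in both libraries. At 4 of the 5 the other strand had more reads. Mir3544 had 56 and 25 counts, against 1999 and 2456 for Mir337 across from it, and it was higher in replicate 1 (log2 ratio -0.93; exact test, adjusted p = 0.00944). Mir3065 had 18 and 11 counts, against 831 and 343 for Mir338, a miRNA known from neurons and oligodendrocytes. For Mir3107 they were 13 and 13, against 183 and 187 for Mir486, a miRNA of red blood cells and muscle. The check for shared runs of 18 bases left out overlapping genes, so it does not cover these pairs. Reads that fit both strands of a locus would be among the multimapping reads, which are in neither count. Their number was not tested.

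Mir3074-1 had 17 and 6 counts, against 152 and 133 for Mir24-1, and missed the threshold (log2 ratio -1.21; exact test, adjusted p = 0.0909). The second copy, Mir3074-2, had no read, while Mir24-2 across from it had 423 and 198. Mir3074-1 and Mir3074-2 share a run of at least 18 bases. Reads that fit both would be among the multimapping reads, so having no read here need not mean absence. Mir3071, across from Mir136, had 1 and 0 counts, against 222 and 129. In Mir3073a the order was turned, with 26 and 11 counts against 1 and 2 for Mir3073b. At the 65 members with no miRNA gene across from them, opposite-strand counts were 6 and 4 in sum, against 10829 and 8880 on the own strand.

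**Figure D4:**
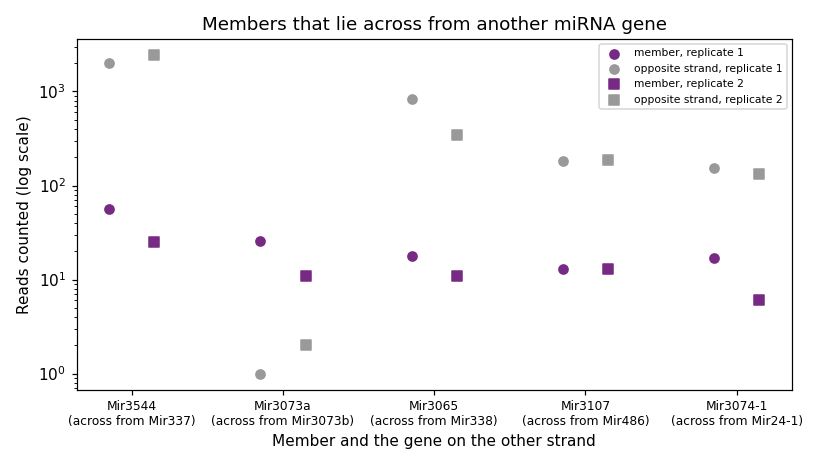
Reads counted, on a log scale, for the 5 members that lie across from another miRNA gene (purple) and on the strand opposite to them (grey), with replicate 1 as circles and replicate 2 as squares. The opposite strand is higher at 4 loci, as at Mir3544 (56 and 25 against 1999 and 2456), and lower at Mir3073a (26 and 11 against 1 and 2).

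The annotated hairpins, which the count rule did not use, varied among the members, and their medians are given beside those of all tested genes as a description. Median GC content was 55.1% for the members and 50.5% for all 367 tested genes, and median length 82.5 and 84 bases. The median folding energy predicted by RNAfold was -0.45 kcal/mol per base for the members and -0.43 for all tested. A single loop was predicted for 66 members, and Mir1291, Mir6516, Mir1983 and Mir6538 folded into more than 1.

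By class, the snoRNA-like hairpins had the lowest median GC content and the weakest fold, at 46.2% and -0.32 kcal/mol per base. The mirtron-like ones had 61.3% and -0.48, and the exonic ones 57.8% and -0.46. Values overlapped between classes, and the classes differ in size, so these medians are a description.

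**Figure D5:**
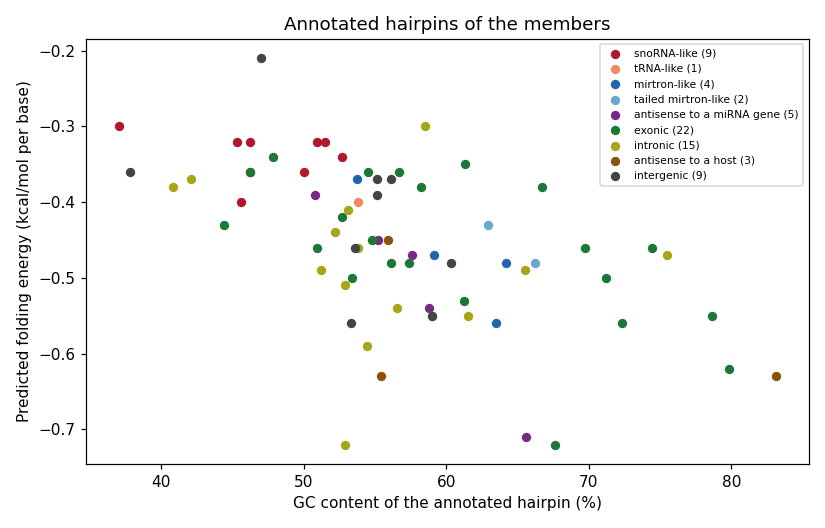
GC content (x axis, percent) and predicted folding energy per base (y axis, kcal/mol, lower is more stable) of the annotated hairpin of each of the 70 members, coloured by class. The snoRNA-like members lie to the left and toward the top, with medians of 46.2% and -0.32 kcal/mol per base.

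Mature sequences from RefSeq were matched for 65 members, all but Mir5099, Mir1949, Mir7219, Mir3107 and Mir5107. Those 65 had 108 mature sequences with 105 distinct seeds. A seed was shared with a gene of lower number at 6 members. Besides Mir3102, Mir6240 and Mir1983 above, these were Mir7069 with a miR-18 arm, Mir5129 with one of Mir455 and Mir1947 with one of Mir674. Another member had the same seed at 4 members, Mir3070a with Mir3070b and Mir5620 with Mir7689.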

How the data were processed

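Small RNA reads of the 2 adrenal libraries were counted per miRNA gene by the authors. The deposited values are raw counts in 3 columns (strand ignored, own strand, opposite strand, as read from the values), with build mm10 and annotation GENCODE M21 per the deposited notes. For the aligner, counter and trimming, the sources used here give no name. CAST/EiJ alleles were not treated separately. All 2202 gene identifiers matched the annotation. The first 4 rows, reads naming no gene, were left out of totals and tests.

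Members and gene lists were chosen with earlier results of these data known. Classes came from GENCODE M21 and RefSeq overlaps, with introns of up to 200 bases and a tolerance of 5 bases at splice sites. Libraries were scaled with TMM factors (edgeR 4.0.16, 1.01 and 0.987), and a two-sided exact conditional binomial test with Benjamini-Hochberg adjustment compared the 2 libraries. Log2 ratios used a prior count of 0.5. A count of 0 allows 3 counts. The script was tested on simulated data. Hairpins were folded with ViennaRNA 2.7.2.

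Values and tests are given for the 12 members highest in mean CPM, for the 5 with the largest log2 ratio each way among summed counts of at least 40, for all snoRNA-, tRNA- and mirtron-like members, and for those on the list with human numbers. Others are given by count or range, and Mir1930, Mir8101, Mir5126, Mir5107, Mir3544 and the members on listed loci were given with their tests after their values were seen. Alternatives were DESeq2 1.42.0 size factors, total counts, the strand-ignored column, other count minimums, a prior count of 5, other splice tolerances and leaving out shared hairpins or each replicate.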

Additional observations from a re-analysis of the deposited data

Results flagged for a closer look

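On the strand opposite to Mir5620, which lies across from Clcn4, 4 reads were counted in replicate 1 and 2 in replicate 2, in a column that the comparisons do not use. The value in replicate 1 is listed because it is above the 3 counts that a count of 0 allows. That limit is no detection threshold, and whether these reads are signal was not tested. On its own strand Mir5620 had 11 and 17 counts.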

How the results depend on the processing

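The number of members that differed between the libraries was 28, and it was 26 with DESeq2 size factors, 28 with total counts, 28 with strand ignored, 23 with no filter on low counts and 25 without members that share 18 bases with another miRNA gene. With a summed count of at least 100 it was 14, as only 25 members were tested. In the main setting 62.7% of all 367 tested genes passed. That share was not worked out for the alternatives, so whether these changes are particular to the members was not tested. Runs of 18 bases shared with an overlapping gene were not counted as shared. The number of members was 70, 108 at a summed count of at least 10, 25 at 100 and 65 with strand ignored. Summed CPM, 4068 as the mean, was 4651 with strand ignored, 3481 without members that share 18 bases, 3663 at a summed count of at least 100, and 3905 to 4231 when a replicate was left out. The 55 members with at least 10 counts in each library became 29 with at least 30, and 59 to 66 when a replicate was left out. Tailed mirtron-like members summed to 13.68 CPM and to 26.8 CPM within 10 bases of a splice site, where Mir5132 joins them. No paired analysis was possible because the labels give a single group. Of 111 alternative log2 ratios for 28 named members, 107 kept their direction and their side of the threshold, 3 passed newly (all of Mir1843a) and 1 no longer passed (Mir7069 with DESeq2 size factors). None was reversed. Strand-ignored ratios were not run for Mir3074-1, which is at 0 there. Depth limits the members at low counts, since 26 of the 70 had a summed count of 20 to 39.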

Other observations

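Entries of the same kind can be missed by a rule on symbols. The gene listed as mmu-mir-3535 had 708 counts in replicate 1 and 531 in replicate 2 (log2 ratio -0.20), and the gene listed as Snord43, a snoRNA symbol in the miRNA tables, had 774 and 587 (log2 ratio -0.18). Both would have ranked among the 6 members with the most reads in replicate 1.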
